A study of Saccharomyces cerevisiae with 8 samples.

Results

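The change in nucleosome organization of wildtype yeast during a shift of carbon source was followed in 4 of the 8 MNase-seq libraries of the series. These were the libraries of strain YEF473A in cultures B and C, each sampled at 0 and 3 hours, and they were chosen by strain without reference to any measured value. Strain YEF473A carries both histone H3 genes, HHT1 and HHT2. Cells were grown with shaking at 30 °C in rich medium with 2% galactose, collected on filters, washed and placed in rich medium with 2% dextrose. The 0 hour cells were taken directly after that transfer. The remaining cells were diluted with fresh dextrose medium and collected 3 hours later. Both time points had thus met dextrose, and the labels give dextrose as the carbon source of every library. Effects of the dilution and of the sugar cannot be told apart. The other 4 libraries came from the H3 shutoff strain DCB200.1, in which HHT1 is deleted and HHT2 is driven by the GAL1 promoter, so that dextrose also stops the supply of H3. They entered the pooled nucleosome calls and the tests below, which fit all 8 libraries with a shared estimate of the spread. The wildtype p-values therefore depend on them too. Their own changes are given only for comparison with the wildtype.

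In MNase-seq, formaldehyde-fixed chromatin is cut with micrococcal nuclease, the DNA of single nucleosomes is cut from a gel, and both ends of each fragment are sequenced. The midpoint of a fragment, called a read center here, marks the dyad of the nucleosome that protected it. Yeast prefers glucose to any other sugar. When glucose is present, repressors silence the genes for galactose use, gluconeogenesis, fatty acid oxidation and respiration, while growth genes and glucose transporters are adjusted to the new rate of sugar uptake. Nucleosomes at inducible yeast promoters are known to be removed or rebuilt as such genes are switched on or off.

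Each library held 5000001 fragments of 100 to 200 bp, because equal numbers had been drawn before deposition, so a difference in counts is a difference in share and not in absolute nucleosome number. A fall in occupancy in every cell and a loss in some of the cells cannot be told apart. No transcript was measured in these libraries, and GAL1, GAL7, GAL10 and the core histone genes lie outside the annotation used here, which covered chromosomes 1, 11, 12, 13 and 14. The shift itself therefore rests on the labels. Nothing in the labels says that B and C came from separate starting cultures, so p-values measure the spread between these samples, which may be technical.

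The libraries differed in ways that did not follow time alone. Mean fragment length rose from 150.6 to 154.6 bp in culture B and from 146.0 to 156.0 bp in culture C, a mean change of 7.03 ± 4.24 bp (SD, n = 2 cultures). The H3 shutoff libraries lengthened by 0.811 and 10.0 bp. The share of fragments over 160 bp rose from 27.4% to 39.5% in B and from 16.1% to 38.8% in C, so fragment length moved with time in both cultures. With fragments of 140 to 160 bp alone, 763 windows fell and 324 rose, against 755 and 317 with all fragments, while promoters that rose numbered 7 instead of 70 and transcripts that fell 116 instead of 57. The deposited nucleosome calls of the B library at 0 hours had the widest range of read centers, from 8 at the 5th percentile to 164 at the 95th, against 12 to 133 for C at 0 hours and 16 to 139 and 16 to 129 at 3 hours. In addition, 152 stretches of 200 bp held at least 5 read centers in the B library at 0 hours, the C library at 3 hours and the pair of libraries of 1 H3 shutoff culture, but at most 2 in each of the other 4 libraries, whereas the reverse pattern was not found in any stretch. These stretches pair the wildtype libraries against their letters. All wildtype calls on nucleosome windows described below were also made when the stretches were left out of the fit. Further windows were called then, so that 1544 fell and 906 rose, and the counts given below depend on keeping the stretches. Comparisons that do not use the letters, such as whether both 3 hour libraries lay outside both 0 hour libraries, are given beside the tests.

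After the carbon shift a small part of the nucleosome windows passed the test for a change in occupancy. Windows that did not pass are not shown to be unchanged. Read centers were counted in 100-bp windows around 60084 nucleosome positions and compared with edgeR's quasi-likelihood test, with culture as a block and Benjamini-Hochberg adjustment at 0.05. Occupancy fell in 755 windows (1.26% of those tested) and rose in 317 (0.528%), with median log2 changes of -1.13 and 1.16 among them. The median over all windows was 0.06. When the 4 wildtype libraries were fitted alone, 361 windows fell and 152 rose. In 200-bp tiles laid across the chromosomes, which do not depend on nucleosome calls, 631 fell (1.06%) and 328 rose (0.552%). The plot of the change in culture C against that in culture B shows the called windows at the lower left and upper right. Other windows fell in B and rose in C, some beyond the plotted range, which is the direction of the shared stretches described above. Over tiles the changes of the cultures correlated with r = 0.005, and with r = 0.34 without those stretches.

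**Figure D1:**
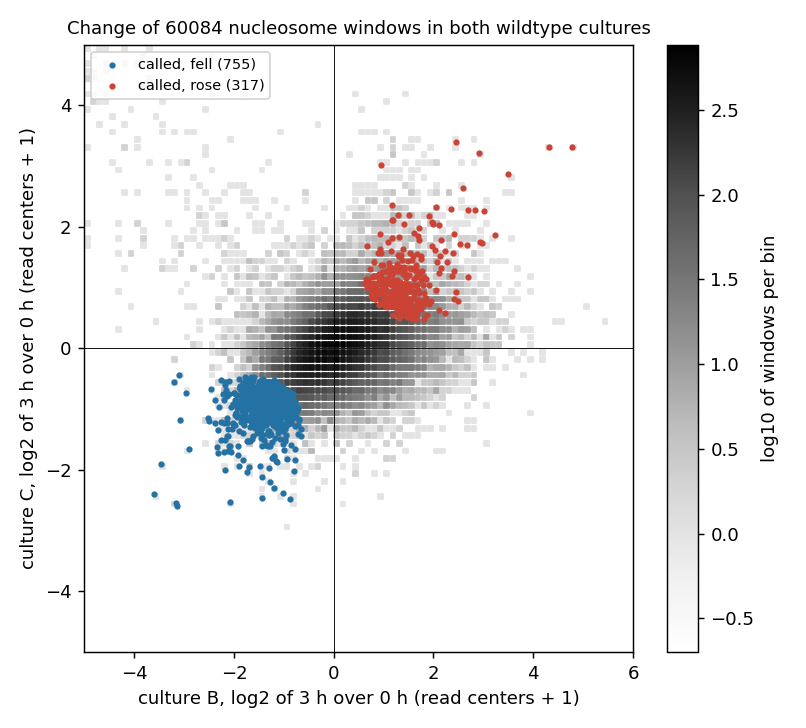
Change of read centers in 60084 nucleosome windows from 0 to 3 hours, as log2 of 3 hours over 0 hours after adding 1, with culture B on the x axis and culture C on the y axis. Grey squares are bins shaded by the log10 of the number of windows in them, blue points the 755 windows that fell and red points the 317 that rose at an adjusted p under 0.05. The called windows lie away from the origin in both cultures.

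Windows that changed at least 1.5-fold in both cultures formed 617 falling loci (718 windows, 1.19% of those tested) and 277 rising loci (305 windows, 0.508%), spread over all 16 chromosomes. Most held a single called window: 540 of the falling loci and 261 of the rising loci held 1, and 18 and 6 held at least 3. In 540 falling and 245 rising loci every 3 hour library differed from every 0 hour library by at least 1.5-fold in the same direction, which 2.06% and 3.22% of all windows did downward and upward without regard to the test. A change of 1.5-fold in both cultures, again without regard to the test, was seen in 3.35% of all windows downward and 6.1% upward. The median change of the leading window was -1.13 at the falling and 1.17 at the rising loci.

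The falling windows lay mainly inside genes and the rising windows more often upstream of them. On the annotated chromosomes, occupancy fell in 1.44% of the 10431 windows inside transcripts and rose in 0.374%. Of the 1277 windows in the 300 to 21 bp upstream of a start, 0.861% fell and 1.80% rose. Windows between listed transcripts fell in 0.629% and rose in 1.20% of 1748 cases, and the first nucleosome of a gene, with 0.444% and 0.518% of 1352 windows, was seldom called. The medians over all windows of these classes, called or not, were 0.01 inside transcripts, 0.30 upstream and 0.14 at the first nucleosome.

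PCK1, which encodes phosphoenolpyruvate carboxykinase, the enzyme that commits carbon to gluconeogenesis and whose gene is known to be silenced by glucose, held 1 of the 2 largest falls among annotated loci. The window centered 74 bp downstream of its listed start (sacCer1, chr11:630806-630905) held 109 and 78 read centers at 0 hours in B and C, and 8 and 14 at 3 hours. Both 3 hour libraries lay far below both 0 hour libraries, with a log2 change of -3.06 ± 0.31 (SE, adjusted p = 0.000393). Other windows of the gene went the other way. The upstream neighbour, 164 bp before the start, rose from 16 and 43 to 94 and 75 (log2 change 1.56 ± 0.37, adjusted p = 0.039). The downstream neighbour at 365 bp held 94 and 119 at 0 hours and 91 and 173 at 3 hours and did not pass the test (0.27, adjusted p = 0.513). Farther into the gene, the windows at 669 and 1037 bp rose from 33 and 55 to 97 and 113 (1.27, adjusted p = 0.016) and from 64 and 83 to 143 and 138 (0.94, adjusted p = 0.027), with no overlap between the time points.

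The arrangement of nucleosomes along PCK1 also differed between the time points. The counts over the 300 bp upstream of the start and over the whole transcript did not pass the test, with log2 changes of 0.20 (adjusted p = 0.650) and 0.19 (adjusted p = 0.163). The upstream value depended on the width taken, since over 200 bp it was 1.60 (adjusted p = 0.026). At 0 hours the first density peaks lay 69, 234 and 369 bp (B) and 55, 227 and 368 bp (C) into the gene. At 3 hours they lay at 12, 164 and 354 bp in B and at 14, 168 and 350 bp in C. A peak stood 169 bp (B) and 173 bp (C) upstream at 3 hours. In C at 0 hours a lower one stood 148 bp upstream. Which 3 hour peak corresponds to which 0 hour peak was not tested. The spacing of successive peaks within the transcript had a median of 162.5 and 168 bp at 0 hours and 172 and 173 bp at 3 hours. Its SD along the gene was 27.5 and 20.8 bp at 0 hours and 12.3 and 10.1 bp at 3 hours, so the array was more even in both 3 hour libraries.

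FBP1 encodes fructose-1,6-bisphosphatase, the other enzyme particular to gluconeogenesis, and is likewise known to be repressed by glucose, but its nucleosomes moved differently. Occupancy fell at 3 windows around and downstream of its start. The window 101 bp upstream held 180 and 92 read centers at 0 hours and 65 and 55 at 3 hours (log2 change -1.13 ± 0.27, adjusted p = 0.044). The windows 241 and 438 bp into the gene fell from 67 and 68 to 27 and 14 (-1.73, adjusted p = 0.012) and from 113 and 96 to 32 and 54 (-1.29, adjusted p = 0.021). Toward the end of the gene the values were 62 and 91 at 0 hours and 88 and 131 at 3 hours for the window at 964 bp, a difference that did not pass the test (0.52, adjusted p = 0.196). The promoter count fell from 219 and 157 to 119 and 130 (-0.58 ± 0.19, adjusted p = 0.047). Promoter counts were less secure than windows: without the culture block FBP1 and every other promoter except that of FRE1 missed the threshold, and after TMM scaling the promoters of FBP1, FOX2, PGM2 and PHO84 had adjusted p of 0.085 to 0.21.

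**Figure D2:**
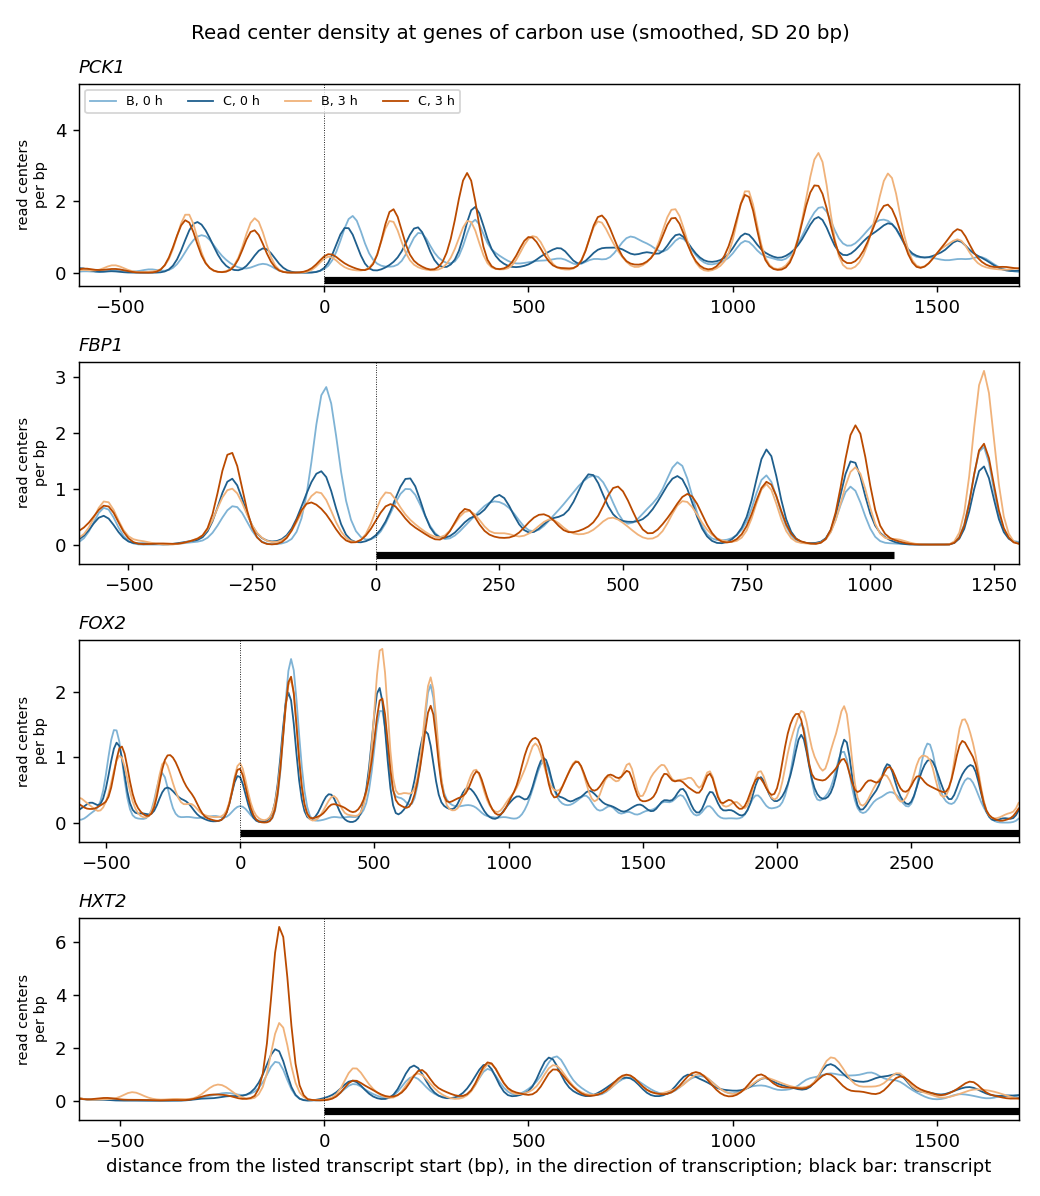
Read center density per bp across PCK1, FBP1, FOX2 and HXT2, smoothed with an SD of 20 bp, against distance in bp from the listed transcript start. Light and dark blue lines are cultures B and C at 0 hours, light and dark orange lines B and C at 3 hours, and the black bar is the transcript. In PCK1 the 0 hour lines have a peak near 74 bp that the 3 hour lines lack, and in HXT2 the peak 108 bp upstream is higher at 3 hours.

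Of the 17 non-fermentable carbon genes tested over the transcript, 3 gained read centers over their length and the other 14 did not pass the test. Over all transcripts 1.37% rose. FOX2, which encodes a multifunctional enzyme of peroxisomal beta oxidation, rose from 1281 and 1431 read centers over the transcript at 0 hours to 2100 and 1864 at 3 hours (log2 change 0.55 ± 0.09, adjusted p = 0.033). Its promoter rose from 64 and 91 to 126 and 152 (0.85, adjusted p = 0.014), and within the gene the window at 1450 bp rose from 12 and 25 to 68 and 62 (1.84, adjusted p = 0.024). CAT2, the carnitine acetyltransferase that carries acetyl units to mitochondria, rose from 1023 and 1138 to 1395 and 1490 (0.42 ± 0.07, adjusted p = 0.036), and CAT8, a zinc-cluster activator of gluconeogenic genes, from 2058 and 2060 to 2704 and 2418 (0.31 ± 0.07, adjusted p = 0.048). After TMM scaling, which resets each library to the bulk of its counts, FOX2 and CAT2 still passed the test and CAT8 did not (adjusted p = 0.051). In all 3 genes both 3 hour libraries lay above both 0 hour libraries. Among all 1609 transcripts, 862 showed no overlap between the time points, in either direction.

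HXT2 encodes a high-affinity hexose transporter whose transcription is known to depend on the glucose level. The window 108 bp upstream of its start held 88 and 118 read centers at 0 hours and 163 and 354 at 3 hours (log2 change 1.26 ± 0.26, adjusted p = 0.022). Both 3 hour values exceeded both 0 hour values, although B at 3 hours was less than 1.5-fold above C at 0 hours. Over the 300 bp upstream the counts rose from 123 and 142 to 211 and 378 (1.11 ± 0.19, adjusted p = 5.17e-06 with the culture block and 0.059 without it), while the transcript showed a change of 0.00. In the H3 shutoff strain the same upstream window changed by -1.36, and the difference between the strains passed the test (adjusted p = 0.0016).

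Among the genes of galactose use that were annotated, GAL2, the galactose permease, showed rising windows both upstream of and within the gene. The window 561 bp upstream rose from 32 and 50 to 76 and 101 read centers (log2 change 1.12, adjusted p = 0.031), and the window at 1154 bp from 54 and 71 to 118 and 126 (0.97, adjusted p = 0.026). A further window at 1682 bp rose from 70 and 92 to 125 and 163 (0.83, adjusted p = 0.0499). Neither the promoter (0.51, adjusted p = 0.133) nor the transcript of GAL2 (0.30, adjusted p = 0.079) passed the test. PGM2, the main phosphoglucomutase, which joins galactose use to glycolysis, rose in the window 94 bp upstream from 64 and 66 to 130 and 122 (0.95, adjusted p = 0.025), and in its promoter from 96 and 85 to 161 and 126 (0.66, adjusted p = 0.027). GAL80, which encodes the repressor of the activator Gal4, had changes of -0.48 in the promoter (adjusted p = 0.651) and -0.04 over the transcript.

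ADH2, the alcohol dehydrogenase that consumes ethanol, and JEN1, the lactate permease, are known to be repressed by glucose, and neither promoter passed the test. The ADH2 promoter held 35 and 37 read centers at 0 hours and 81 and 58 at 3 hours (0.93 on the log2 scale, adjusted p = 0.122), without overlap. The JEN1 promoter held 88 and 117 and then 118 and 141 (0.34, adjusted p = 0.333). Over the transcripts of ADH2 and JEN1 the changes were -0.19 and 0.06. PHO84, the high-affinity phosphate transporter, did change: its promoter rose from 105 and 42 to 160 and 104 (0.90, adjusted p = 0.0038) and its transcript from 523 and 618 to 779 and 867 (0.53, adjusted p = 0.036). The promoter groups of PHO84 overlapped by 1 read center, since C at 3 hours stood at 104 and B at 0 hours at 105.

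The most extended falls lay within genes. SSA2, a cytosolic Hsp70 chaperone, fell from 1170 and 1221 read centers over the transcript to 601 and 720 (log2 change -0.86 ± 0.08, adjusted p = 0.0026), and its windows at 109, 265, 449 and 614 bp fell by 1.82, 1.86, 1.91 and 1.17 on the log2 scale. At 109 bp the counts went from 277 and 173 to 62 and 63. SSA2 shares a near-identical coding sequence with SSA1, and Bowtie at its default settings reports a single placement for reads that match several places, so reads of the 2 genes cannot be told apart where they are identical. ACS2, the acetyl-CoA synthetase used during growth on glucose, fell from 1397 and 1225 to 729 and 723 (-0.85 ± 0.08, adjusted p = 0.0026). Of its windows, 6 fell, from 341 bp (192 and 127 to 74 and 64) to 1953 bp (77 and 52 to 29 and 27). The time points did not overlap at either gene, as at 862 of all 1609 transcripts.

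Falls were also found at FRE1, FET3 and AAC1, the last 2 of which are named here after their values were seen. At FRE1, the ferric and cupric reductase of the cell surface, 5 windows in a row fell, from 240 bp upstream to 551 bp into the gene (chr12:568146-569036), with log2 changes of -1.21 to -1.55. Its promoter fell from 189 and 167 to 74 and 61 (-1.40 ± 0.19, adjusted p = 4.81e-10), and the H3 shutoff strain showed a change of -1.26 there. FRE1 shares this upstream region with CRR1, a gene of spore wall formation, whose promoter count fell from 96 and 115 to 56 and 49 (adjusted p = 0.015). FET3, the multicopper ferroxidase of iron uptake, fell from 133 and 119 to 28 and 36 in the window 751 bp into the gene (-1.97 ± 0.23, adjusted p = 0.000957). AAC1, a mitochondrial ADP/ATP carrier near it on chromosome 13, fell from 110 and 71 to 40 and 12 in the window at 43 bp (-1.86 ± 0.27, adjusted p = 0.0048). Both 3 hour libraries lay below both 0 hour libraries at each of these windows.

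**Figure D3:**
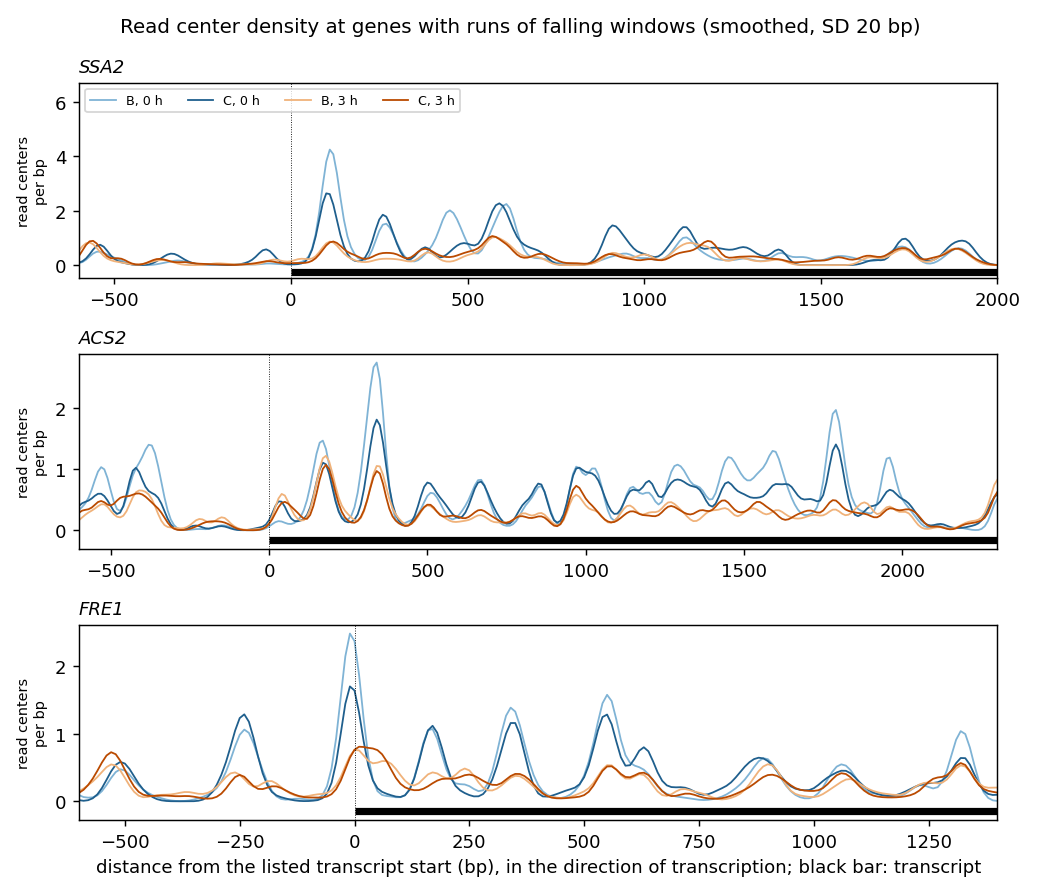
Read center density per bp across SSA2, ACS2 and FRE1, smoothed with an SD of 20 bp, against distance in bp from the listed transcript start. Light and dark blue lines are cultures B and C at 0 hours, light and dark orange lines B and C at 3 hours, and the black bar is the transcript. The 3 hour lines lie below the 0 hour lines over several successive nucleosomes of each gene.

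Other large falls were found in single windows and in a run of windows. The window at chr12:784099-784198, which lies 571 bp upstream of NMA1, a gene of NAD synthesis, fell from 53 and 28 to 5 and 4 (log2 change -3.12, adjusted p = 0.0040). Upstream of COG8, which encodes a subunit of a Golgi tethering complex, the window at chr13:131656-131755 fell from 62 and 39 to 13 and 9 (-2.18, adjusted p = 0.015). HIF1, which encodes a histone chaperone of the Hat1 complex, held a run of 4 falling windows (chr12:99223-99848), and the leading one fell from 127 and 103 to 45 and 46 (-1.33, adjusted p = 0.0072).

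Several of the strongest falls lay on chromosomes for which no annotation was used, so the genes there are not named. At chr16:628082-628361 the leading window fell from 210 and 101 to 23 and 16 (log2 change -2.96), and at chr10:117947-118226 from 120 and 96 to 10 and 25 (-2.62). At chr4:768541-769172, a run of 4 windows, the leading one fell from 54 and 80 to 12 and 13 (-2.40). Each of these was lower in both 3 hour libraries than in either 0 hour library, and so were the next ones. At chr2:799444-799543 the counts went from 96 and 59 to 12 and 18 (-2.34), whereas the H3 shutoff strain changed by 1.00 there. At chr16:902080-902682, with 4 windows, the leading one fell from 189 and 124 to 37 and 37 (-2.06). At chr4:1014936-1015586, also with 4 windows, it fell from 247 and 117 to 70 and 61 (-1.41).

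The largest rises lay in windows that held few read centers at 0 hours, so their folds rest on small counts. Upstream of RPS21A, which encodes a protein of the small ribosomal subunit, the window at chr11:551075-551174 rose from 2 and 2 to 33 and 21 (log2 change 3.66 ± 0.87, adjusted p = 0.042). In the transcript of the same gene, the window 546 bp downstream of the start fell from 157 and 76 to 33 and 45 (-1.52, adjusted p = 0.018). Upstream of CTS1, the endochitinase of cell separation, the window 354 bp from the start rose from 7 and 4 to 64 and 23 (2.90, adjusted p = 0.017). Over the 300 bp next to the start of CTS1 the counts fell, from 163 and 187 to 133 and 110 (-0.53, adjusted p = 0.0498). Upstream of SML1, which encodes an inhibitor of ribonucleotide reductase, the window 221 bp from the start rose from 6 and 3 to 41 and 24 (2.83, adjusted p = 0.039). At IZH3, a membrane protein gene linked to zinc homeostasis, the window 49 bp upstream rose from 11 and 12 to 77 and 62 (2.58, adjusted p = 0.015). In all 4 windows upstream of these genes the 3 hour libraries lay above the 0 hour libraries.

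Longer runs of rising windows had higher counts. At chr14:503737-504707, the longest run with 6 windows, the leading window rose from 46 and 28 to 201 and 118 (log2 change 2.10, adjusted p = 0.000393). At chr2:451151-451938, a run of 5, it rose from 18 and 23 to 96 and 117 (2.37, adjusted p = 0.000533). At chr16:274214-274842, a run of 4, it rose from 23 and 21 to 78 and 75 (1.79). None of these 3 runs showed overlap between the time points. In CAT2, described above, a run of 3 windows stood near 1368 bp from the start, and its leading window rose from 45 and 49 to 99 and 116 (1.19, adjusted p = 0.015).

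Other large rises lay on chromosomes without annotation. At chr8:273704-273803 the counts went from 1 and 0 to 54 and 9. At chr10:26481-26580 they went from 2 and 4 to 59 and 49 (log2 change 4.12), against 0.25 in the H3 shutoff strain. At chr7:420754-420853 they went from 5 and 2 to 44 and 27 (3.33). At chr9:21974-22073 they went from 7 and 1 to 43 and 20 (3.07), and at chr16:24804-24903 from 8 and 5 to 63 and 28. Each rose in both cultures without overlap, and in each the gain was larger in B than in C when counted in read centers.

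Summed over the 300 bp upstream of each start, 24 of 1594 promoters fell (1.51%) and 70 rose (4.39%). The median over all promoters was itself 0.25 on the log2 scale, and after scaling by TMM, which moved that median to 0.03, 27 fell and 5 rose, so the balance between rises and falls turned with the scaling. Of these calls, 20 falls and 5 rises were also made after TMM scaling. The rises that held were those of IZH3 (29 and 19 to 100 and 69), COX12 of the respiratory chain (37 and 60 to 139 and 99), ERO1, the oxidase of disulfide formation in the endoplasmic reticulum (69 and 94 to 152 and 160), the clathrin adaptor gene APL2 (25 and 22 to 89 and 56) and HXT2. In each of these the 3 hour libraries lay above the 0 hour libraries. Among all 1594 promoters, 765 showed no overlap between the time points, in either direction. Without the culture block 1 fall and no rise passed the test, which leaves only FRE1.

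The largest promoter rises started from few read centers. FRT2, which encodes a protein of the endoplasmic reticulum membrane, rose from 1 and 4 to 30 and 18 (log2 change 3.18). ATG26, a sterol glucosyltransferase, rose from 11 and 6 to 58 and 19 (2.09), TIF11, the initiation factor eIF1A, from 7 and 18 to 57 and 43 (2.03), and the mannosyltransferase gene KTR2 from 8 and 33 to 74 and 60 (1.85). The RPS21A promoter rose from 15 and 13 to 47 and 43 (1.68) and that of ADE12, a gene of AMP synthesis, from 37 and 12 to 84 and 45 (1.47). After TMM scaling none of these 6 promoters passed the test, with adjusted p from 0.054 to 0.088.

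Among the largest promoter falls, several belonged to reading frames that lie within another gene, so the counts are those of that gene's body. The promoter of YLR339C, inside the ribosomal stalk gene RPP0, fell from 142 and 122 to 41 and 79 (log2 change -1.16), and that of YML009W-B, which overlaps the elongation factor gene SPT5, fell from 292 and 216 to 100 and 138 (-1.09). DIC1, the mitochondrial dicarboxylate carrier, fell from 223 and 173 to 101 and 98 (-0.98). The promoters of YLR217W, YLR415C and YLR374C fell by 0.88, 0.85 and 0.82 on the log2 scale. The fall at YLR374C came from culture B alone, with 256 read centers at 0 hours and 77 at 3 hours, against 171 and 170 in culture C. After TMM scaling YLR374C did not pass the test (adjusted p = 0.051). In all, 12 of the 24 falling and 35 of the 70 rising promoters overlapped another listed transcript, as did 963 of all 1594.

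Over whole transcripts 57 of 1609 genes fell (3.54%) and 22 rose (1.37%), around a median of -0.01. In each of these transcripts the 3 hour libraries did not overlap the 0 hour libraries, which was also so for 862 of all 1609. The sizes were modest, 0.28 to 1.21 on the log2 scale for the falls and 0.30 to 0.95 for the rises. The largest fall was that of the short frame YMR272W-A (72 and 86 to 34 and 34, -1.21). After it and SSA2 and ACS2 came MIM2, a gene of mitochondrial protein import (273 and 239 to 130 and 162, -0.81). LSM3, an Sm-like RNA-binding protein, followed (127 and 182 to 67 and 117, -0.76). Of these, YMR272W-A overlaps SCS7, SSA2 overlaps PAU17 and LSM3 overlaps CAR2. In all, 20 of the 57 falling and 13 of the 22 rising transcripts overlapped another listed transcript, as did 734 of all 1609. Without culture B none of the 1609 transcripts passed the test, but that fit has 1 wildtype library at each time and takes its spread from the H3 shutoff libraries.

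Further transcripts that fell had varied roles, and those named next were chosen after their values were seen, except PFK2. SPT5, the elongation factor that travels with RNA polymerase II, fell from 2198 and 1709 to 1175 and 1371 (log2 change -0.61), and RPP0 from 392 and 341 to 223 and 266 (-0.58). PFK2, a subunit of phosphofructokinase, fell from 1150 and 1191 to 771 and 940 (-0.46). HMG1 and ERG13, which act early in sterol synthesis, fell from 1560 and 1574 to 1073 and 1171 (-0.48) and from 608 and 598 to 415 and 462 (-0.46). STE6, the exporter of a-factor, fell from 1735 and 1773 to 1148 and 1277 (-0.53), and HSP60, the mitochondrial chaperonin, from 876 and 953 to 636 and 720 (-0.43). Among the rises, YMR141C went from 70 and 81 to 139 and 153 (0.95) and SPC2, a signal peptidase subunit, from 132 and 189 to 267 and 272 (0.76). YMR007W went from 197 and 180 to 297 and 276 (0.60), and LDB18, a dynactin subunit, from 316 and 273 to 472 and 419 (0.60). YNL235C went from 244 and 252 to 398 and 347 (0.58). Of these, YMR141C overlaps SIP5, YMR007W overlaps PLB1, LDB18 overlaps YBT1 and YNL235C overlaps the Mediator gene SIN4, so part of their counts is shared.

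Gene groups related to the shift were described by their counts. Of 17 promoters of non-fermentable carbon genes, that of FOX2 rose and those of FBP1 and SDH1, a succinate dehydrogenase subunit, fell, none of which passed the test after TMM scaling, and the list's median of 0.24 was close to that of all promoters. Over transcripts 3 of 17 rose and none fell, at a median of -0.02. Of the 6 glycolytic genes no promoter was called, at a median of 0.78 that was 1.62 in culture B and 0.16 in culture C. Over transcripts all 6 had negative values, at a median of -0.25, and only PFK2 fell. Of 35 cytoplasmic ribosomal protein genes 1 promoter rose (RPS21A) and 1 fell (RPL31B), and over transcripts RPP0 alone fell, at a median of -0.24.

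The remaining groups showed few calls. Of 27 promoters of ribosome biogenesis genes 1 rose, that of LTV1, which serves the assembly and export of the small subunit (64 and 64 to 124 and 124), and none of 29 transcripts was called. Of 34 genes of the mitochondrial ribosome and respiratory chain, 4 promoters rose, those of COX12, ATP7, ATP25 and MRPL38, where 4.39% of all promoters rose. After TMM scaling only that of COX12 passed the test, and the ATP7 time points overlapped (91 and 20 to 141 and 50). Over transcripts ATP7, a subunit of ATP synthase, fell from 421 and 418 to 282 and 314. Of 19 stress response genes the promoter of ALD2, an aldehyde dehydrogenase, rose from 96 and 94 to 149 and 148, and over transcripts SSA2 alone fell. The lists are shown gene by gene in the plot of changes by list.

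**Figure D4:**
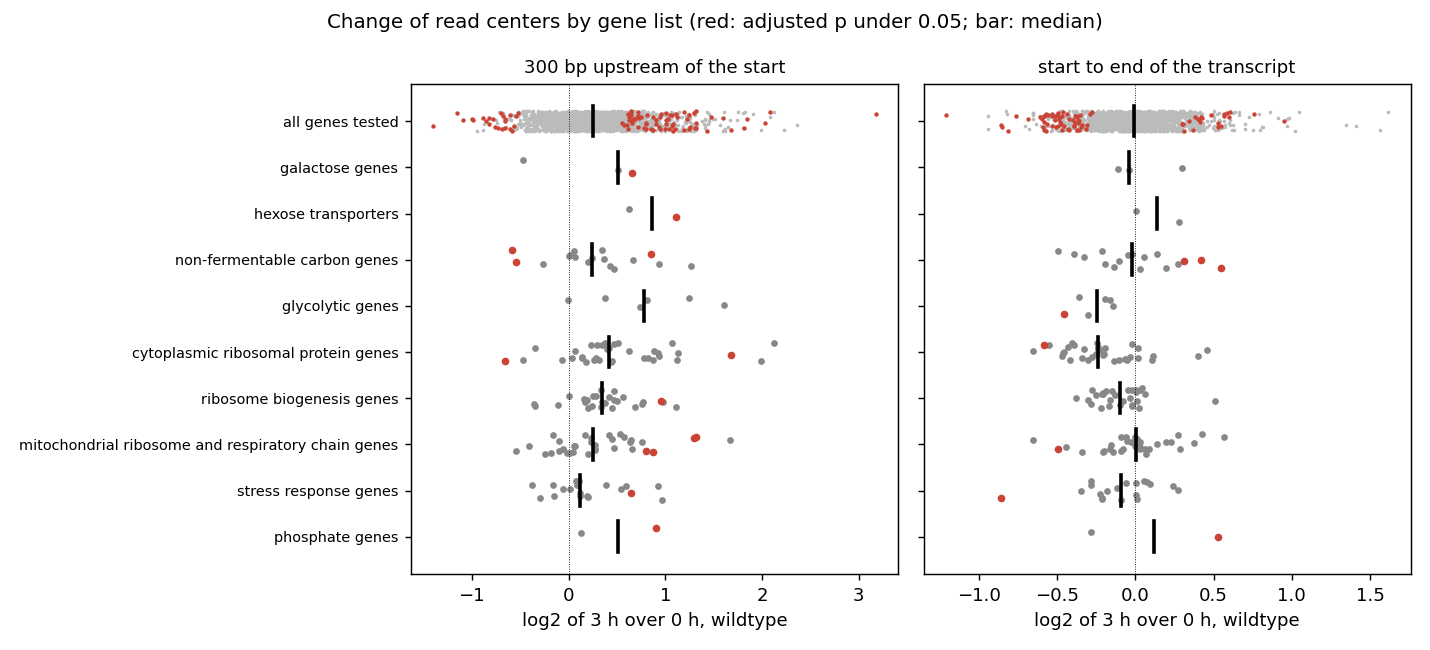
Log2 of 3 hours over 0 hours in the wildtype for the 300 bp upstream of each start (left) and for whole transcripts (right), with 1 point per gene and 1 line of points per list. Red points passed an adjusted p of 0.05 and black bars are medians. The median of all genes is 0.25 on the left and -0.01 on the right, and the 6 glycolytic transcripts all lie below 0.

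The mean profile of genes changed little in the positions of its +1 and +2 peaks, while later peaks lay slightly nearer to +1 at 3 hours. Over 1018 genes of at least 1000 bp aligned on their first (+1) nucleosome, the position of the +1 peak moved by -1 bp in B and 1 bp in C. The distance from +1 to +2 was 168 bp in both cultures at 0 hours and 168 and 167 bp at 3 hours. Read at steps of 5 bp, the next peaks moved from 335 to 330 bp and from 500 to 495 bp in both cultures. The peak after them moved from 665 to 660 bp in B and from 660 to 655 bp in C. The density at the +1 peak, in units of the genome mean, went from 4.88 to 4.88 in B and from 4.27 to 4.73 in C. The lowest density in the nucleosome-depleted region upstream rose from 0.113 to 0.184 in B and from 0.106 to 0.124 in C, a change of 0.044 ± 0.038 (SD, n = 2 cultures). The density at the -1 nucleosome, the one upstream of that region, rose from 1.58 to 1.69 in B and from 1.49 to 1.60 in C, by 0.106 in each, but with fragments of 140 to 160 bp alone it rose by only 0.013 and 0.022. In the H3 shutoff cultures the depleted region changed by 0.25 and 0.24. With 2 cultures an exact permutation test cannot go below p = 0.5, so no test was made on these values.

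**Figure D5:**
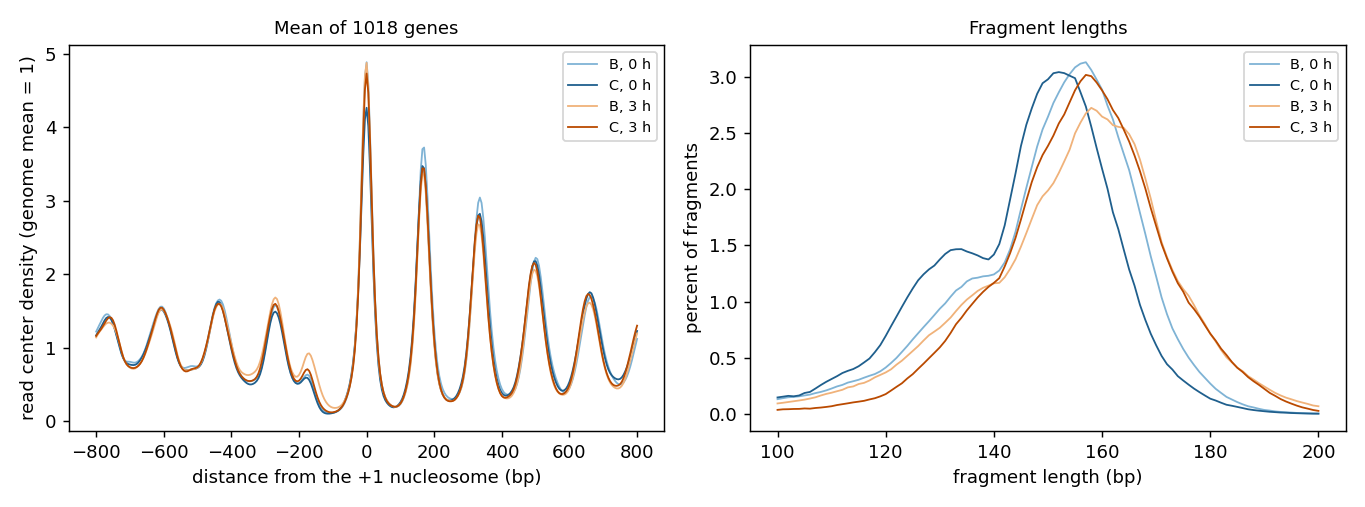
Left, mean read center density (genome mean = 1) of 1018 genes against distance in bp from the +1 nucleosome; right, share of fragments in percent against fragment length in bp. Blue lines are cultures B and C at 0 hours and orange lines at 3 hours. The +1 peaks coincide within 1 bp, and the fragment length curves are shifted to the right at 3 hours in both cultures.

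The deposited nucleosome calls allowed position and occupancy to be compared within each culture, in the way the study describes, with an unequal-variance test on read center positions and a binomial test on read centers, both Bonferroni-adjusted. Of 56313 nucleosomes classified in both cultures, 46262 were unchanged in position in both and 1832 (3.25%) were altered in both. In 1282 of these, 70.0%, both cultures moved the same way, by medians of 57.8 bp in B and 56.7 bp in C. The median over all classified nucleosomes was 7.36 and 6.57 bp. When only centers within 50 bp were matched, 279 were altered in both cultures and 249 of them moved the same way.

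Changes in occupancy were rarer by this measure and unequal between the cultures. In B 1480 nucleosomes were reduced and in C 219, and 51 were reduced in both (0.0906% of those classified). In B 912 were retained above the rest and in C 239, of which 28 were shared (0.0497%). Another 39 were reduced in 1 culture and retained in the other. With the 3 hour libraries of B and C exchanged, 65 were reduced in both, 39 retained in both and 50 opposite. The nucleosomes reduced in both included those near 265 bp in SSA2 and near 756 bp in FET3, and others in BDH2, STE6, ABF1, HSP60 and CAC2, genes in which windows or transcripts also fell. Among nucleosomes inside 1 transcript that were altered in the same direction, 123 of 281 (43.8%) had moved downstream, against 2740 of 7251 (37.8%) of all classified nucleosomes that shifted the same way in both cultures.

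The wildtype changes were set beside those of the H3 shutoff strain, which made the same change of medium. Of the 755 windows that fell in the wildtype, 435 had a negative change in the H3 shutoff strain, 158 also fell there and 80 rose. Of the 317 that rose, 136 had a positive change there, 40 also rose and 69 fell. In the H3 shutoff strain 22.4% of all windows fell and 5.26% rose, and 42381 of the 60084 windows had a negative change. The difference between the strains passed the test at 411 of the falling and 211 of the rising windows, and at 21.3% of all windows. The called windows were chosen by their wildtype change, which is part of that difference, so these shares cannot be compared. At the PCK1 window 74 bp from the start and at the FET3 window the H3 shutoff strain changed by 0.11 and 0.27, and the difference between the strains passed the test at both (adjusted p = 0.0016). At the FRE1 windows the adjusted p of the difference was 0.12 to 0.85.

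The number of window calls changed with the use of a culture block and with the culture left out. Without the culture block, 304 of the falling and 108 of the rising windows were still called, and the PCK1 window at 74 bp was among them. With culture B left out 143 and 65 of them were still called, and with culture C left out 691 and 269, in fits where the single wildtype library at each time is assumed to vary like the H3 shutoff libraries. DESeq2 in place of edgeR made 50 and 1 calls. None of the called windows changed sign in these fits.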

How the data were processed

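Paired-end MNase-seq was made at 0 and 3 hours in 2 cultures each of strain YEF473A (wildtype) and strain DCB200.1 (H3 shutoff). The authors aligned reads with Bowtie 0.12.6 at default settings to sacCer1, left out the rDNA of chromosome 12, retained fragments of 100 to 200 bases and drew equal numbers of pairs. The authors deposited fragment tables and nucleosome calls per library, with fragment start and end positions in the former, and counts of read centers, positions, lengths and standard deviations in bp in the latter. The deposited fraction of read centers on the dyad base was not used. No genome of that build was used here, so coordinates are those of the files, and sequences are not shown.

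Fragment midpoints were counted in 100-bp windows around nucleosomes called in the pooled libraries, in 200-bp tiles, in the 300 bp upstream of transcript starts and over transcripts. Features with at least 80 read centers over the 8 libraries were tested with edgeR 4.0.16 (R 4.3.3) by the quasi-likelihood test, with culture as a block, equal library sizes and Benjamini-Hochberg adjustment at 0.05 over all features of a kind. The block follows the study, which compared times within replicates. The standard error is the log2 change over the square root of F. Loci joined called windows within 300 bp that changed at least 1.5-fold in both cultures after adding 1. Other tools were DESeq2 1.42.0, limma 3.58.1, Python 3.11.15 with scipy 1.17.1, pandas 2.3.3, numpy 2.4.6 and, for figures, matplotlib 3.10.9. The fits were tested on simulated data.

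Transcript starts and ends came from the study's list in sacCer1 coordinates, of which 1614 on chromosomes 1, 11, 12, 13 and 14 were used. The 385 on chromosome 10 were left out, after the data were seen, because the nucleosome profile there was displaced from the listed starts. Symbols came from RefSeq for 1462. Named genes were the listed galactose genes with ADH2, HXT2, CAT8, FBP1, PCK1 and JEN1. To these were added the 8 and 8 promoters and 5 and 5 transcripts with the largest called changes, where both cultures moved the same way. Up to 4 members per list with the smallest promoter p, and the 8 and 8 largest loci with those of most windows, were also named. Other genes were named after their values were seen. The samples, lists and rules were chosen with earlier results of these data known. Each library held 5000001 fragments, so precision was set by the counts in a feature and by 2 cultures. The alternatives tried were no block, the 3 hour libraries exchanged, TMM scaling, DESeq2, no count filter, 60-bp windows, 500-bp tiles, 200-bp promoters, fragments of 140 to 160 bp, wildtype libraries alone, and each culture left out.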

Additional observations from a re-analysis of the deposited data

Results flagged for a closer look

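Each value here is the wildtype log2 change minus the H3 shutoff log2 change, at a feature named in the report where that difference passed edgeR's quasi-likelihood test (Benjamini-Hochberg adjusted p under 0.05). The median window changed by 0.06 in the wildtype and by -0.36 in the H3 shutoff strain, so the differences sit around a positive value. Of all features, 21.3% of windows, 16.6% of promoters and 18.6% of transcripts passed this test. Many of the features below were named for a large wildtype change, which is part of the difference, so the test was not independent of the choice.

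Among windows lower in the wildtype, the difference was -3.17 at PCK1 (chromosome 11, center 630856), -3.30 upstream of NMA1 (chromosome 12, center 784149) and -1.20 in HIF1 (chromosome 12, center 99456). On chromosomes without annotation it was -2.98 and -1.19 on chromosome 16 (centers 628312 and 902130), -3.08 on chromosome 10 (center 118177) and -3.34 on chromosome 2 (center 799494). At FBP1 it was -1.14 in the window 101 bp upstream and -1.30 in the window 241 bp downstream of the start.

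Among windows higher in the wildtype, the difference was 3.86 on chromosome 10 (center 26531), 1.75 on chromosome 2 (center 451889), 1.30 on chromosome 14 (center 504144) and 1.70 on chromosome 16 (center 274604). It was 1.58 and 1.12 in PCK1 at 669 and 1037 bp. At genes of sugar use it was 1.24 for GAL2 at 561 bp upstream, 2.62 for HXT2 at 108 bp upstream, 1.59 for PGM2 at 94 bp upstream and 1.46 for PGM2 at 1738 bp.

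For promoters the difference was 1.69 at HXT2, 1.73 at FOX2, 2.27 at TIF11, 2.52 at KTR2, 1.19 at LTV1, 1.23 at ATP25 and 0.83 at YNL235C, and it was -1.84 at YLR339C, -1.52 at YML009W-B, -0.97 at DIC1, -1.45 at YLR415C and -1.81 at RPL31B, which encodes a protein of the large ribosomal subunit. For transcripts it was 0.42 at CAT8, 0.47 at FOX2, 1.11 at YMR141C, 1.40 at SPC2, 0.70 at YMR007W and 0.63 at LDB18. It was -1.41 at YMR272W-A, -0.49 at SSA2, -0.73 at ACS2, -1.08 at LSM3 and -0.77 at PFK2.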

How the results depend on the processing

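No named locus turned direction under the alternatives run on it, 15 of the 22 being tested with fragments of 140 to 160 bp and none with 60-bp windows, while the counts of calls moved. Falling and rising windows numbered 755 and 317 with the replicate block and 304 and 108 without it; DESeq2 gave 50 and 1, the 4 wildtype libraries alone 361 and 152, and leaving out 1 culture 202 to 3187 and 340 to 2678. Leaving out the stretches shared by 4 libraries, chosen after seeing the data, gave 1544 and 906. Falling and rising loci numbered 259 and 92 without the block, 45 and 1 with DESeq2, 306 and 137 with the wildtype alone and 1003 and 659 without the stretches. The 631 falling and 328 rising tiles of 200 bp became 67 and 34 without the block.

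Promoter calls (24 fell, 70 rose) were 1 and 0 without the block, 1 and 0 with DESeq2, 15 and 7 with fragments of 140 to 160 bp, 9 and 12 over 200 bp and 13 and 22 with the wildtype alone, and 5 rose after TMM scaling. Leaving out 1 culture gave 2 to 35 and 4 to 154. Transcript calls (57 and 22) were 23 and 10 after TMM scaling, 116 and 52 with fragments of 140 to 160 bp, 150 and 101 with the wildtype alone, 91 and 37 with chromosome 10 kept, and 0 to 124 and 0 to 65 with 1 culture left out, and 20 fell with DESeq2. Windows that differed between the strains (12797) were 5030 with fragments of 140 to 160 bp, and promoters that differed (264) were 42 without the block, 139 after TMM scaling, 71 with those fragments and 102 to 322 with 1 culture left out.

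Same-letter wildtype libraries deviated together with r = -0.12 over tiles and 0.19 without the shared stretches, so the labels' pairing was also exchanged, after which the block gave 599 and 225 windows, 0 and 0 promoters, 7 and 1 transcripts and 0 promoters that differed between the strains, and 549 of the falling and 199 of the rising windows were still called. Of the 22 named loci, 22 were called after TMM scaling, 16 without the block, 13 without culture B and 7 with DESeq2.

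Matching nucleosome calls within 50 bp gave 279 altered in both cultures, 249 in 1 direction, 28 reduced and 11 retained, and 15 were retained among calls with more than 20 read centers. Aligned on the listed start, the lowest density upstream changed by 0.0987 and the +1 to +2 distance by 1 bp. Fragments under 130 bp, also added after seeing the data, gave 0.111 for that density and -0.307 for the +1 height. Values near 0 that changed sign were the PCK1 promoter (-0.017 after TMM scaling, -0.047 with DESeq2) and the transcript of PGM2 with fragments of 140 to 160 bp (0.015). With 1 culture left out the range was -0.081 to 0.48 for the PCK1 promoter, and for transcripts -0.096 to 0.015 for GAL80, -0.43 to 0.045 for ADH2, -0.12 to 0.13 for HXT2 and -0.032 to 0.15 for JEN1. The causes were not tested. Windows with few read centers limit the largest folds.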
